A study of Mus musculus with 8 samples.

Results

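The genes described here are *Tnfrsf1a*, which encodes tumor necrosis factor (TNF) receptor 1, and 9 genes of its signalling path. They were measured by RNA-seq in epiblast-like cells (EpiLCs) of *Tet1* knockout (KO) and wild-type (WT) lines. The 10 genes are *Tnfrsf1a*, *Tnfrsf1b*, *Tradd*, *Ripk1*, *Traf2*, *Fadd*, *Birc2*, *Nfkb1*, *Rela* and *Nfkbia*. They were found by symbol, each on 1 of the 54281 gene rows, and all 10 passed the filter on low counts that kept 17272 genes. *Tnfrsf1a* was selected on its difference between *Tet1* KO and WT lines, so its values in that comparison are a description without a test. The other 9 were taken as known parts of the path of that receptor.

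The libraries came from 4 lines of the *Tet1* KO genotype (KO1, KO9, KO15 and KO25), and from 4 of the WT genotype (WT7, WT12, WT17 and WT34), 1 library each. Each line is a separate blastocyst-derived ESC line, and the strain label B6129S6F1 Tet1 tm1Koh is the same for both genotypes. The study describes littermate pairs of KO and WT lines, but no source used here says which of these 8 lines form a pair. ESCs had been adapted to 2iL medium and were converted on fibronectin in N2B27 with serum replacement and bFGF, without Activin A. The titles WT12 and WT17, which are used here, stand beside the cell line labels WT9 and WT12. Column names end in b1 for KO1, KO9, WT7 and WT17 and in b2 for KO15, KO25, WT12 and WT34, a suffix that no source explains. The spread within a group mixes lines, cultures and libraries.

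TNF receptor 1 is a cell surface receptor with a death domain inside the cell. When TNF or lymphotoxin alpha binds it, the adaptor TRADD and the kinase RIPK1 assemble on that domain, and TRAF2 brings in the ubiquitin ligase cIAP1, encoded by *Birc2*. Ubiquitin chains made there recruit the IKK kinases, which mark the inhibitor IκBα (*Nfkbia*) for destruction and release NF-κB, typically the p50 product of *Nfkb1* with RELA. A second complex of FADD and caspase 8 can instead lead to cell death. TNF receptor 2 (*Tnfrsf1b*) has no death domain and binds TRAF2 directly.

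TET1 oxidizes 5-methylcytosine at CpG sites, so the CpGs before the starts of the 2 receptor genes are shown in capitals. These are the 250 bases before each start, 5′ to 3′ on the strand of the gene, from RefSeq on GRCm38.p6. The window of *Tnfrsf1a* is chr6:125349473-125349722 on the plus strand and that of *Tnfrsf1b* is chr4:145246871-145247120 on the minus strand. The *Tnfrsf1a* window lies before the start of the full-length coding transcript Tnfrsf1a-201 at 125349723. Short annotated transcripts of the gene start upstream of this window, at 125349362 and 125349451.
Tnfrsf1a: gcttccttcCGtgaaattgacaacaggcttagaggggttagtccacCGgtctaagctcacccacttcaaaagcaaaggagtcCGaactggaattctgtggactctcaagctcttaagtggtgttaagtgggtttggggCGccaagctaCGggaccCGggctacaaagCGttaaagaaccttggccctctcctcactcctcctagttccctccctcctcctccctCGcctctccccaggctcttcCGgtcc
Tnfrsf1b: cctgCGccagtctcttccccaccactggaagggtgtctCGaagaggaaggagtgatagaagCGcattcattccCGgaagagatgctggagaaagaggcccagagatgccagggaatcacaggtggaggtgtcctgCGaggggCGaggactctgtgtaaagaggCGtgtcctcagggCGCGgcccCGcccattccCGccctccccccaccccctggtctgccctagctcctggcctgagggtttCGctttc
The *Tnfrsf1a* window holds 9 CpGs and the *Tnfrsf1b* window 12, against a median of 6 (quartiles 2 and 16) over 32851 promoter windows of the same length. The windows of *Ripk1*, *Traf2*, *Fadd*, *Birc2* and *Rela*, of which some have more than 1 window, hold 19 to 32. That of *Nfkbia* holds 8, fewer than either receptor gene. Methylation was not measured in these libraries.

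*Nfkbia* is shown because it is the textbook feedback target of NF-κB. Its window is chr12:55492648-55492897 on the minus strand, and capitals mark its match to the κB consensus motif, which was searched on both strands.
Nfkbia: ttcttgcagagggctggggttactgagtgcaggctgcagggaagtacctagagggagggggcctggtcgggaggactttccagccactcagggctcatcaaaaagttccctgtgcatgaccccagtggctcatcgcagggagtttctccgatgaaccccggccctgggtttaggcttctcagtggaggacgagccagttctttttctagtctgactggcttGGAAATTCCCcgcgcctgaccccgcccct
The match starts 29 bases before the start of the gene. It was the only match in the windows of *Tnfrsf1a*, *Tnfrsf1b*, *Ripk1*, *Traf2*, *Fadd*, *Birc2*, *Rela* and *Nfkbia*, and 7.25% of all promoter windows hold one. *Tradd* and *Nfkb1* had no entry.

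The KO lines carried about 3 times the *Tnfrsf1a* RNA of WT lines, and neither the second TNF receptor nor any adaptor, kinase or NF-κB gene among the other 9 was called. In this comparison edgeR called 0.0405% of all genes, so the absence of calls among the other 9 says little about the path. *Tnfrsf1a* (ENSMUSG00000030341.17, chromosome 6 of mm10 from 125349362 to 125362484, plus strand) had 18.7, 19.6, 21.5 and 19.5 counts scaled to the library total (CPM) in lines KO1, KO9, KO15 and KO25. In WT7, WT12, WT17 and WT34 it had 7.53, 6.21, 6.08 and 5.81 CPM. The lowest KO line thus lay well above the highest WT line. The means were 19.8 ± 1.18 and 6.41 ± 0.769 CPM (SD, n = 4 lines each), and the log2 fold change was 1.63 (standard error 0.13). These values rest on 268 to 414 counts per KO library and 82.0 to 149 per WT library, and were whole to within 0.001, so almost none were shared with another gene. In bulk RNA, a change in the share of cells that express a gene and a change per cell cannot be told apart.

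The difference was present under both column suffixes. Its log2 fold change was 1.49 between KO1, KO9 and WT7, WT17 (b1) and 1.77 between KO15, KO25 and WT12, WT34 (b2). The difference between these values was 0.27 (standard error 0.24, adjusted p = 1.00 for the interaction in edgeR). This interaction was called for 0% of the 17272 genes, with 227 genes at an unadjusted p under 0.05. Between b2 and b1, with genotype in the model, *Tnfrsf1a* differed by −0.026 (standard error 0.12, adjusted p = 0.899 from edgeR). A choice by the KO against WT comparison favours a small spread within each genotype, which includes the suffix and interaction differences. The p-values of both are thus not independent of the choice of *Tnfrsf1a*. For reference, *Tet1* itself had 38.4 to 54.2 CPM in KO against 559 to 851 CPM in WT lines.

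**Figure D1:**
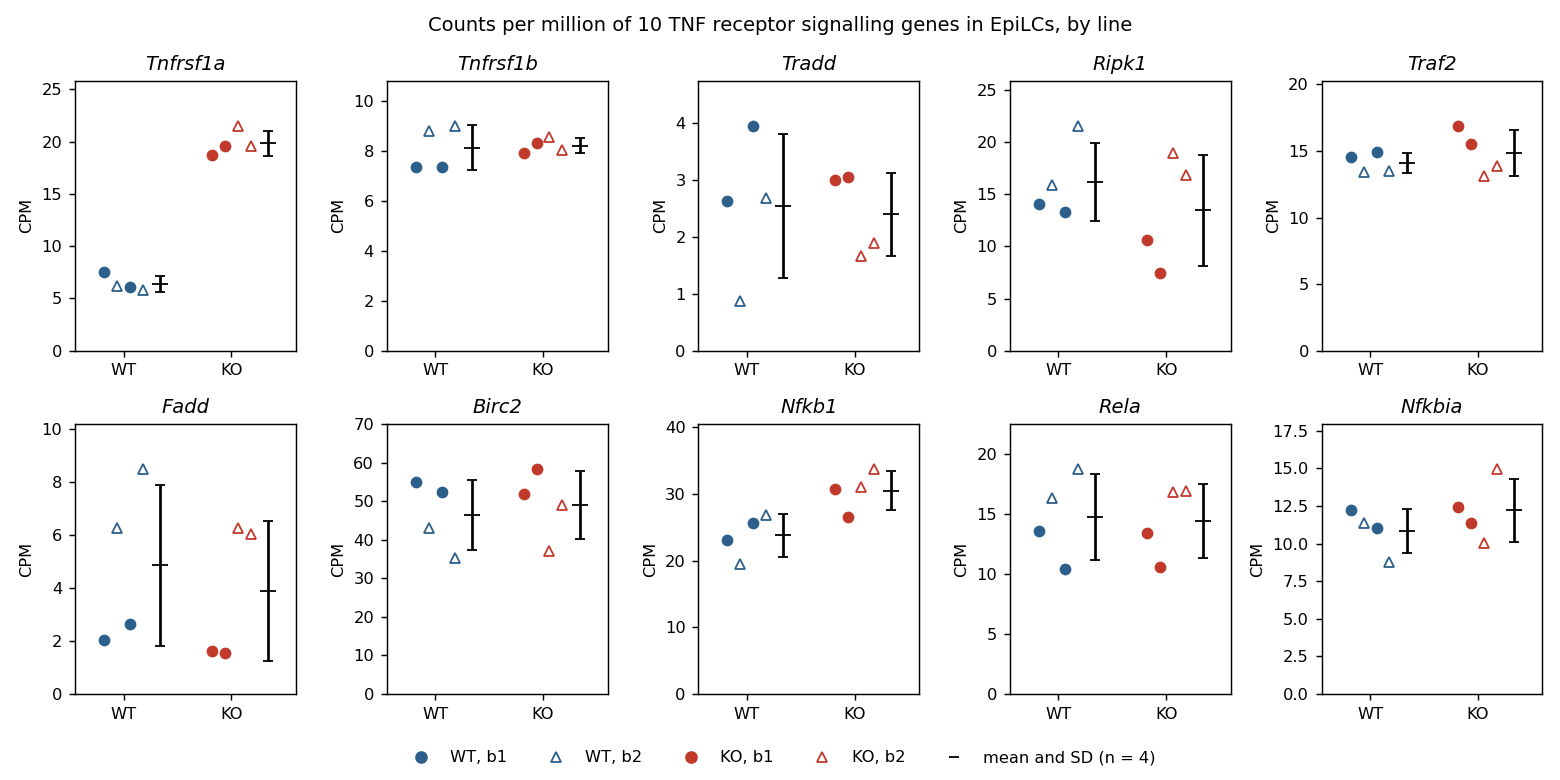
CPM of each of the 10 genes in WT and KO lines, with 1 point per line, filled circles for b1 and open triangles for b2, and the mean and SD of 4 lines beside them. For Tnfrsf1a the 4 KO lines lie between 18.7 and 21.5 CPM, above all WT lines, and for the other 9 genes the KO and WT points overlap.

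*Tnfrsf1b*, the receptor without a death domain, had 7.92, 8.32, 8.56 and 8.02 CPM in lines KO1, KO9, KO15 and KO25 and 7.37, 8.80, 7.35 and 8.99 CPM in lines WT7, WT12, WT17 and WT34. The KO range lay inside the WT range. Its log2 fold change was 0.015 (standard error 0.14, adjusted p = 0.998 from edgeR), and it differed by 0.15 between b2 and b1 (adjusted p = 0.390). In the same edgeR comparison of KO with WT, 0.0405% of all genes were called (7 of 17272), which is the background for the 0 calls among the other 9.

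For the adaptors and the kinase at the receptor, the difference between the genotype means was smaller than the SD of the WT lines. *Tradd*, the first adaptor to bind the death domain, had 3.00, 3.06, 1.66 and 1.90 CPM in lines KO1, KO9, KO15 and KO25 and 2.64, 0.876, 3.96 and 2.69 CPM in lines WT7, WT12, WT17 and WT34. Both the lowest and the highest line were WT, and the log2 fold change was −0.069 (standard error 0.42, adjusted p = 0.998). *Traf2*, the adaptor that brings in cIAP1, had 16.9, 15.5, 13.1 and 13.9 CPM in the KO lines and 14.6, 13.4, 14.9 and 13.5 CPM in the WT lines, in the same order. Its range was the narrowest relative to its level among the adaptors. The log2 fold change was 0.074 (standard error 0.12, adjusted p = 0.998).

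*Ripk1*, the kinase that links the receptor to both NF-κB and cell death, had 10.6, 7.47, 18.9 and 16.8 CPM in lines KO1, KO9, KO15 and KO25 and 14.1, 15.8, 13.3 and 21.5 CPM in lines WT7, WT12, WT17 and WT34. The 4 b2 libraries were the 4 highest. KO minus WT was −0.27 (standard error 0.29, adjusted p = 0.998), and b2 minus b1 was 0.71 (standard error 0.17, adjusted p = 0.0141). The suffix call of *Ripk1* was lost by limma on TPM without a filter (adjusted p = 0.107). *Birc2*, the gene of the ubiquitin ligase cIAP1, had 52.0, 58.3, 37.2 and 48.9 CPM in the KO lines and 54.9, 43.2, 52.5 and 35.2 CPM in the WT lines, in the same order. Here the 4 b2 libraries were the lowest. The log2 differences were 0.080 for KO minus WT (standard error 0.17, adjusted p = 0.998) and −0.41 for b2 minus b1 (standard error 0.11, adjusted p = 0.0210). The suffix call of *Birc2* was lost with a length offset (adjusted p = 0.0788), by limma on TPM (0.123 to 0.225), and without KO9, KO15, WT7 or WT34 (0.0559 to 0.0683).

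*Fadd*, the adaptor of the death complex, showed the largest suffix difference of the 10 genes. It had 1.64, 1.55, 6.28 and 6.05 CPM in lines KO1, KO9, KO15 and KO25 and 2.03, 6.26, 2.64 and 8.50 CPM in lines WT7, WT12, WT17 and WT34. All b2 libraries lay above 6 CPM and all b1 libraries below 3 CPM, in both genotypes. The b2 minus b1 difference was 1.79 (standard error 0.19, adjusted p = 0.000322 from edgeR), and KO minus WT was −0.33 (standard error 0.59, adjusted p = 0.998). *Fadd* counts were not whole in 8 of 8 libraries, which shows that reads were shared with at least 1 other gene. This was not particular to *Fadd*. Counts of *Tnfrsf1b*, *Ripk1*, *Traf2*, *Birc2* and *Nfkb1* were also not whole in 8 libraries, and those of *Rela* in 6.

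Of the NF-κB genes, *Nfkb1*, which encodes p105 and p50, was the nearest to the pattern of the receptor. It had 30.8, 26.5, 31.0 and 33.7 CPM in lines KO1, KO9, KO15 and KO25 and 23.0, 19.5, 25.7 and 26.8 CPM in lines WT7, WT12, WT17 and WT34. The groups overlapped only by KO9 against WT34. The log2 fold change was 0.36 (standard error 0.13), with an unadjusted p of 0.0204 and an adjusted p of 0.791 from edgeR, so it was not called, nor with the suffix as a block (adjusted p = 0.291) or by DESeq2 (adjusted p = 0.477). It ranked 438th by p among 17272 genes. In TPM, which divide by transcript length, the lowest KO line (4.39) lay above the highest WT line (4.05). The share of all genes whose lines did not overlap in TPM was not counted, and limma on TPM did not call *Nfkb1* (adjusted p = 0.902 to 0.927).

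*Rela*, the partner of p50, had 13.4, 10.6, 16.9 and 16.9 CPM in lines KO1, KO9, KO15 and KO25 and 13.6, 16.4, 10.5 and 18.8 CPM in lines WT7, WT12, WT17 and WT34. Again the 4 b2 libraries were the highest, by 0.52 (standard error 0.12, adjusted p = 0.0149), while KO minus WT was −0.035 (standard error 0.22, adjusted p = 0.998). The suffix call was lost with a length offset (adjusted p = 0.435), by limma on TPM (0.478 to 0.612), and without KO9 or WT17 (0.0627 and 0.0530). In TPM the *Rela* values of b1 (6.47 to 13.9) and b2 libraries (8.48 to 18.5) overlapped. *Nfkbia*, which encodes the inhibitor IκBα, had 12.5, 11.4, 10.0 and 15.0 CPM in the KO lines and 12.2, 11.3, 11.1 and 8.78 CPM in the WT lines, in the same order. The highest line was KO and the lowest WT, but the other 6 were mixed, and the log2 fold change was 0.17 (standard error 0.17, adjusted p = 0.998).

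In all, 1 of the 10 genes had KO and WT lines that did not overlap in CPM, and this was *Tnfrsf1a*, on which the choice was made. Over all genes tested, 4.19% did not overlap. The suffix split more of them: b2 and b1 libraries did not overlap for *Ripk1*, *Fadd* and *Rela* (b2 higher) and for *Traf2* and *Birc2* (b2 lower), 5 of 10 genes against 26.3% of all genes. Of these 5, all but *Traf2* were called (adjusted p = 0.151 for *Traf2*), which makes 4 of 10 against 24.6% of all genes. With the suffix as a block, the KO against WT comparison called 0.162% of all genes, and still none of the 9 others.

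**Figure D2:**
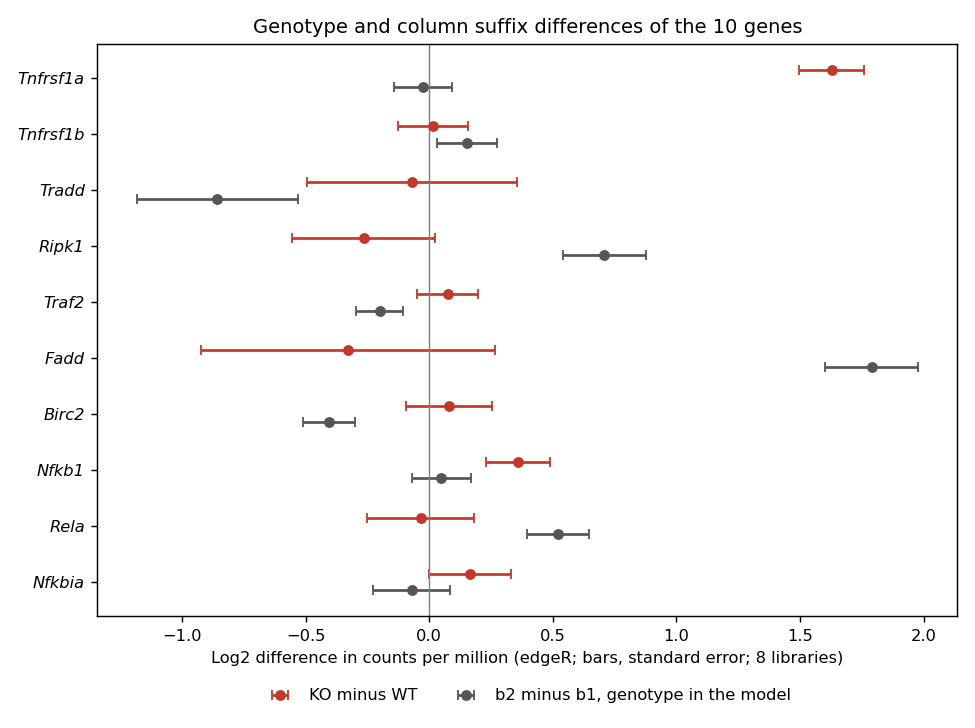
Log2 difference in CPM with its standard error for each of the 10 genes, for KO minus WT (red) and for b2 minus b1 with genotype in the model (grey), over 8 libraries. Tnfrsf1a stands at 1.63 for genotype and −0.026 for suffix, and Fadd at −0.33 and 1.79.

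The size of the *Tnfrsf1a* difference depended on the transcript length by which the reads were divided. The deposited TPM were 27.8, 36.9, 33.9 and 37.1 in KO1, KO9, KO15 and KO25 and 17.3, 9.29, 14.0 and 10.2 in WT7, WT12, WT17 and WT34. KO lines again lay above WT lines, but the means, 33.9 ± 4.32 and 12.7 ± 3.69 TPM, differed 2.67-fold, compared with 3.10-fold in CPM. The coefficient of variation among WT lines was 29.1% in TPM and 12.0% in CPM. Within b1 the ratio of the mean TPM was 2.07 and within b2 it was 3.65, whereas the ratios in CPM were 2.81 and 3.41.

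Counts divided by TPM give the effective length that each library used for a gene, once scaled on 789 genes with 1 annotated transcript. For *Tnfrsf1a* it was 281, 219, 264 and 221 nt in KO1, KO9, KO15 and KO25 and 177, 293, 192 and 233 nt in WT7, WT12, WT17 and WT34. The 2 genotypes overlapped, with WT lines at both ends of the range. The log2 difference was 0.16 (two-sided exact permutation test over 70 assignments, p = 0.429, adjusted p = 0.952 over the 10 genes). Within b1 the KO lines had the longer lengths, by 0.43, and within b2 the shorter, by −0.11, which are values with no test.

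All of these lengths are short for this gene. The full-length coding transcript Tnfrsf1a-201 has 2156 nt in 10 exons, or 1907 nt of effective length when a fragment term of 249 nt is taken off. The mean over the 8 libraries was 235 nt, which is 12.3% of that. GENCODE lists 5 other transcripts of 885, 764, 621, 390 and 250 nt. The last of these, Tnfrsf1a-204, is a noncoding transcript of 2 exons that starts at 125349362, upstream of the start of Tnfrsf1a-201 at 125349723, and the 390 nt transcript starts at 125349451. With the same term taken off, the 5 other transcripts have 636, 515, 372, 141 and 1 nt. The lengths of all 8 libraries lay below 372 nt, so by this annotation some abundance was assigned to the 390 or 250 nt transcript. Counts divided by TPM weight each transcript by its TPM and not by its reads. A few reads on a very short transcript can thus shorten the length of the gene. The abundance of each transcript was not analysed here, so how the reads were divided among the transcripts is not known.

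**Figure D3:**
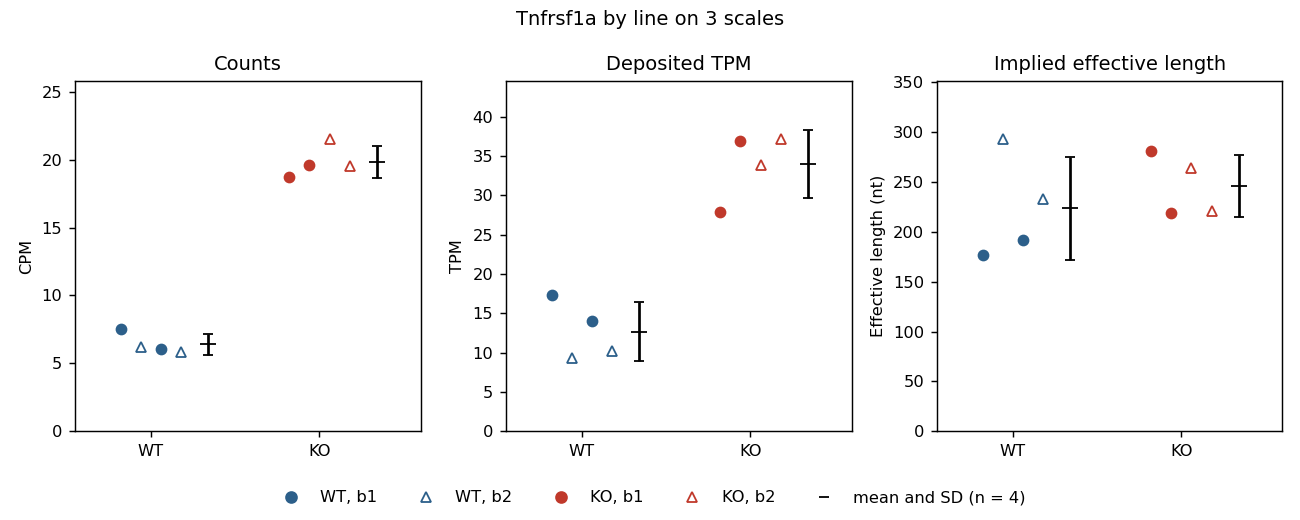
Tnfrsf1a in each line as CPM, as deposited TPM and as the effective length (nt) implied by both, with 1 point per line and the mean and SD of 4 lines. KO and WT lines are apart in CPM and TPM and overlap in length, where the 8 lines span 177 to 293 nt.

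When the TPM were restated at the longest annotated transcript, that is, multiplied by the effective length used and divided by 1907 nt, *Tnfrsf1a* had 4.33 ± 0.248 TPM in KO and 1.42 ± 0.148 TPM in WT lines, a ratio of 3.05. Its place among the 10 genes then changed. In deposited TPM of WT lines, *Tnfrsf1a* (12.7 ± 3.69), *Rela* (11.9 ± 5.59) and *Birc2* (9.75 ± 1.86) were the highest and did not differ beyond their spread. Next came *Nfkbia* (3.92 ± 1.03), *Nfkb1* (3.84 ± 0.296), *Traf2* (2.71 ± 0.198) and *Ripk1* (2.49 ± 0.552), each within the spread of at least 1 neighbour, and *Tnfrsf1b* (1.00 ± 0.278), *Tradd* (0.771 ± 0.398) and *Fadd* (0.541 ± 0.333) were the lowest and overlapped.

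At the longest transcript, *Birc2* (6.38 ± 1.30 TPM) led in WT lines, followed by *Nfkbia* (3.46 ± 0.511), *Nfkb1* (2.57 ± 0.340), *Rela* (2.53 ± 0.573), *Traf2* (1.54 ± 0.119) and then *Tnfrsf1a*. Here the SD ranges of *Nfkb1* and *Rela*, of *Nfkbia* and *Rela*, and of *Traf2* and *Tnfrsf1a* overlapped. In KO lines *Tnfrsf1a* was the second, after *Birc2* (6.63 ± 1.18 TPM) and next to *Nfkbia* (3.83 ± 0.678 TPM), within the spread of the latter. *Rela* shared the short lengths of *Tnfrsf1a*, at 345 to 851 nt against 2467 nt for its longest transcript, or 22.7%. For *Tradd*, *Nfkbia*, *Tnfrsf1b* and *Fadd* the mean length was between 91.1% and 103% of the longest, and for *Ripk1*, *Traf2*, *Birc2* and *Nfkb1* between 44.2% and 66.5%. For none of the 10 genes did the length differ between genotypes at an adjusted p under 0.05. The lowest unadjusted exact permutation p was 0.0571 for *Traf2*, where the design allows 0.0286. Adjusted over the 10 genes, 1 gene alone at that minimum could not come under 0.05. The absence of calls therefore does not show equal lengths.

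**Figure D4:**
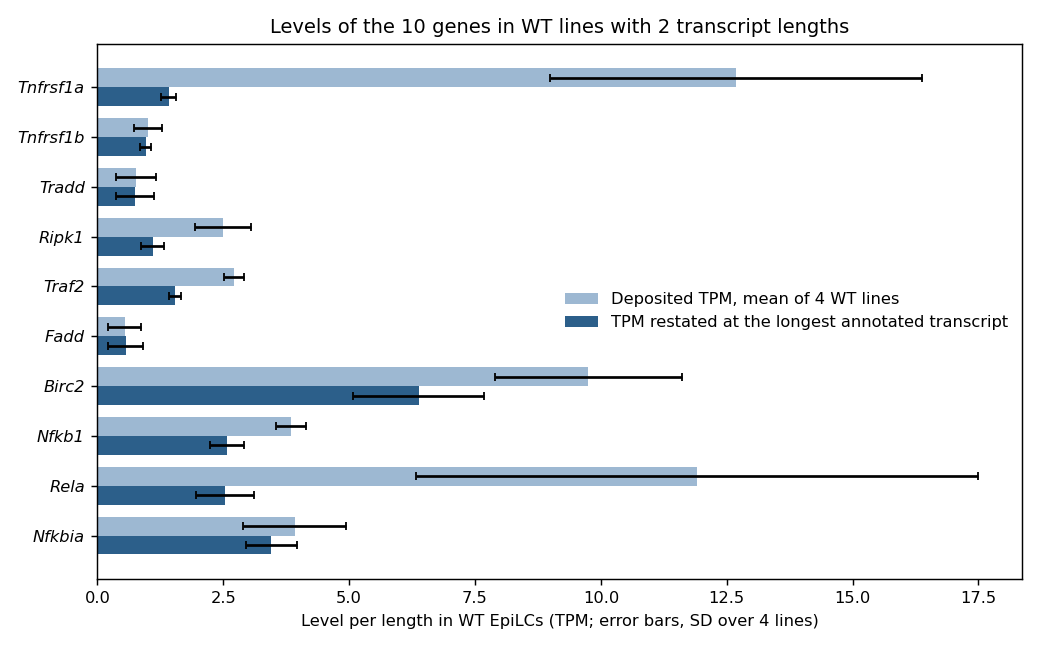
Mean level per length of each of the 10 genes in 4 WT lines, as deposited TPM (light) and restated at the longest annotated transcript (dark), with the SD as error bars. Tnfrsf1a falls from 12.7 to 1.42 and Rela from 11.9 to 2.53, while Tnfrsf1b stays at 1.00 and 0.963.

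The wider path was read from 8 lists with 144 genes, of which 104 were tested. No list gene was called between KO and WT by edgeR, which called 0.0405% of all genes. Over the 104 genes, 7 had an unadjusted p under 0.05, the median log2 fold change was −0.033 and 48 were positive, and over all genes tested the median was −0.0044. By DESeq2, which called 0.614% of all genes, 1 of the 104 was called (*Adam10*, adjusted p = 0.0183). KO and WT lines did not overlap for 5 of the 104, 3 with KO above and 2 with KO below, against 4.19% of all genes.

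Of the ligands, *Tnf* itself had 1 count in WT17 and 0 in the other 7 libraries, where a count of 0 allows up to 3 in each. *Lta*, the other ligand of this receptor, had 2, 5, 4 and 2 counts in KO1, KO9, KO15 and KO25. In WT7, WT12, WT17 and WT34 it had 0, 0, 1 and 1, and it did not pass the filter on low counts. *Grn*, the progranulin gene whose product is reported to bind TNF receptors, was the most abundant of this list at a mean of 28.4 TPM and was lower in b2 than in b1 by 0.65 (adjusted p = 0.00104). *Tnfsf11*, the gene of the ligand RANKL, had 1.92 to 10.8 CPM in KO against 1.76 to 5.66 CPM in WT lines and was higher in b2 by 1.45 (adjusted p = 0.0185). *Tnfsf9*, the 4-1BB ligand gene, had 0.948 to 2.26 CPM in KO against 0.542 to 1.05 CPM in WT lines (log2 fold change 0.91, unadjusted p = 0.0356, adjusted p = 0.827 from edgeR).

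Among the other receptors of the family, 8 of 26 reached a mean of 1 TPM. The highest were *Ltbr*, the lymphotoxin beta receptor gene (7.70 to 25.8 TPM), *Tnfrsf10b*, a TRAIL receptor gene (8.43 to 11.9 TPM), and *Eda2r*, an ectodysplasin receptor gene (7.32 to 15.9 TPM). Their ranges overlapped, and *Ltbr* rested on 995 counts over the 8 libraries against 9814 for *Tnfrsf10b* and 10738 for *Eda2r*. *Tnfrsf19*, a receptor gene of the developing embryo also known as *Troy*, had 12.6 to 18.4 CPM in KO against 9.38 to 12.5 CPM in WT lines (log2 fold change 0.45, adjusted p = 0.751). *Tnfrsf22* and *Tnfrsf21* had log2 fold changes of −0.38 and 0.20 (adjusted p = 0.927 and 0.967). Of the 8 genes of receptor shedding and trafficking, *Adam10*, a protease gene of cell surface shedding, had 62.9, 50.6, 52.0 and 53.3 CPM in lines KO1, KO9, KO15 and KO25 and 43.2, 40.1, 38.2 and 40.5 CPM in lines WT7, WT12, WT17 and WT34. All KO lines lay above all WT lines, and the log2 fold change was 0.43 (standard error 0.10, adjusted p = 0.358 from edgeR). *Erap1* (−0.78) and *Bag4* (−0.077) had adjusted p of 0.927 and 0.998.

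In the list of the receptor complex, ubiquitin and IKK, 28 of 28 genes were tested, 10 were positive and the median was −0.044. *Cyld*, a deubiquitinase gene that restrains the path, had 16.3 to 19.5 CPM in KO against 19.9 to 22.2 CPM in WT lines (log2 fold change −0.25, unadjusted p = 0.0435, adjusted p = 0.856). *Xiap* (−0.19) and *Ikbkb* (0.20), the genes of an apoptosis inhibitor and of an IKK subunit, had adjusted p of 0.932 and 0.936. By suffix, 10 of the 28 were called, 9 higher and 1 lower in b2, against 24.6% of all genes. They included *Traf6*, a ubiquitin ligase gene (20.1 CPM in b1 and 34.1 CPM in b2, log2 difference 0.76, adjusted p = 0.00269). *Map3k7*, the gene of the TAK1 kinase (0.47, adjusted p = 0.00147), and *Tab2*, that of its binding partner (0.46, adjusted p = 0.00101), were also higher in b2, while *Rnf31*, the catalytic subunit of the linear ubiquitin ligase, was lower in b2 (−0.67, adjusted p = 0.000687).

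In the death complex list, *Casp8*, the gene of the initiator caspase recruited by FADD, came nearest to *Tnfrsf1a*. It had 1.17, 2.11, 2.34 and 1.53 CPM in lines KO1, KO9, KO15 and KO25 and 0.880, 0.584, 0.471 and 0.637 CPM in lines WT7, WT12, WT17 and WT34. All KO lines were above all WT lines at a low level, from 21.0 to 45.2 counts in KO and 9.06 to 16.0 counts in WT libraries. The log2 fold change was 1.47 (standard error 0.33), with an adjusted p of 0.358 from edgeR and 0.0547 from DESeq2, so it was called by neither. *Cflar*, which encodes the caspase 8 inhibitor FLIP, and *Bax* had log2 fold changes of −0.23 and −0.13 (adjusted p = 0.998 for both). The median of the 11 genes tested was 0.067.

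Of the other NF-κB and IκB genes, 3 of 12 were positive and none had an unadjusted p under 0.05. *Nfkbid* (−0.62), *Relb* (−0.27) and *Bcl3* (−0.58) were the lowest by p (adjusted p = 0.936, 0.971 and 0.989). By suffix, *Nfkb2*, the gene of the noncanonical p100, was lower in b2 (22.4 CPM in b1 and 12.3 CPM in b2, log2 difference −0.88, adjusted p = 0.00648), and *Nkrf*, a gene of an NF-κB repressing factor, was higher (18.8 and 40.3 CPM, 1.10, adjusted p = 0.000244). In the JNK and p38 arm, all 13 genes were tested. *Atf2*, a transcription factor gene of this arm, had 61.0 to 71.2 CPM in KO against 72.9 to 84.7 CPM in WT lines (−0.22, unadjusted p = 0.0297, adjusted p = 0.810), and *Map3k5* (0.26) and *Mapk14* (0.19) had adjusted p of 0.961 and 0.989.

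Genes that NF-κB is known to induce were mostly low or at 0. Of 26, 9 had 0 TPM in every library, among them *Ccl2*, *Cxcl2* and *Il1b*, 5 reached a mean of 1 TPM and 10 were tested. By suffix, 6 of these 10 were called, 2 higher and 4 lower in b2, against 24.6% of all genes. *Sod2*, a mitochondrial antioxidant gene, was the highest at 43.9 TPM. *Plau*, the urokinase gene, had 1.04 to 1.97 CPM in KO against 0.283 to 1.04 CPM in WT lines (0.98, unadjusted p = 0.0376, adjusted p = 0.840). *Irf1*, an interferon response factor gene, had 8.58, 5.66, 15.3 and 11.0 CPM in lines KO1, KO9, KO15 and KO25 and 8.41, 49.9, 9.66 and 26.4 CPM in lines WT7, WT12, WT17 and WT34. WT12 stood far above the rest, KO minus WT was −1.22 (adjusted p = 0.907) and b2 minus b1 was 1.51 (adjusted p = 0.00644). *Csf1* had a log2 fold change of 0.90 at 0.110 to 1.35 CPM (adjusted p = 0.998). Over all 8 lists, 27 of 104 genes were called by suffix, 17 higher and 10 lower in b2, close to the share over all genes.

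**Figure D5:**
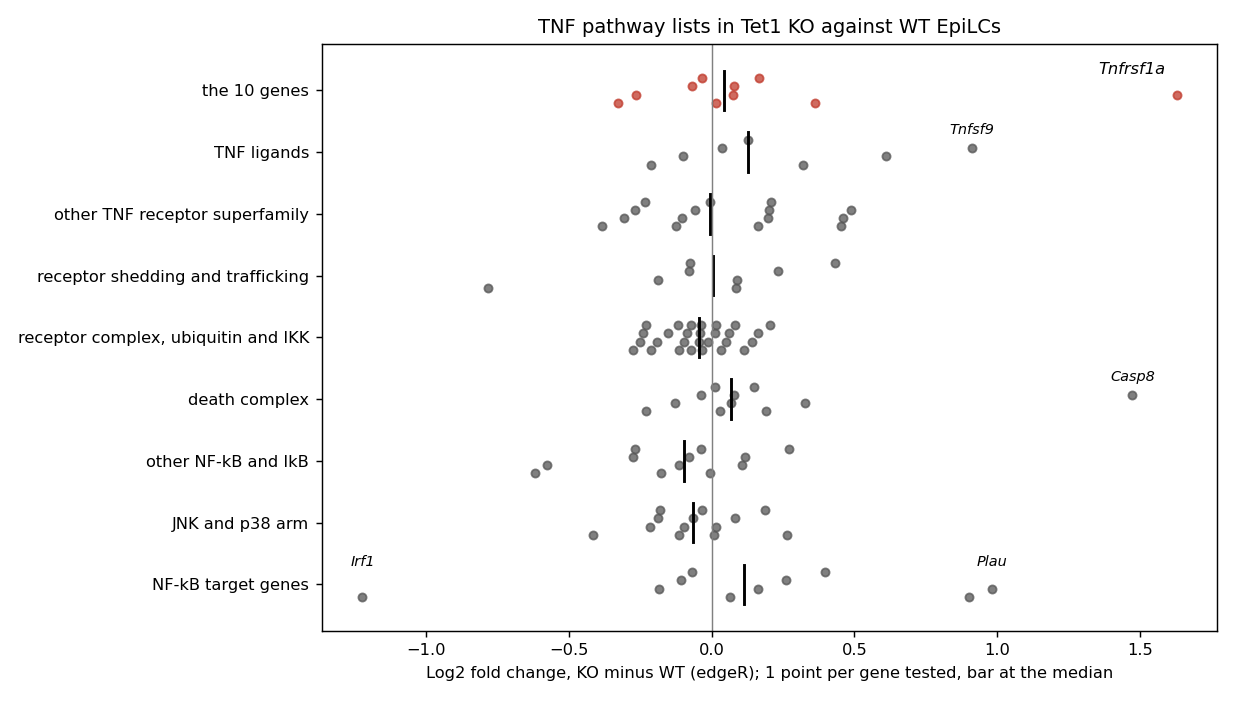
Log2 fold change between KO and WT EpiLCs of the 10 genes (red) and of the genes tested in 8 lists of the TNF path (grey), with 1 point per gene and a vertical bar at the median of each list. Tnfrsf1a at 1.63 and Casp8 at 1.47 lie far to the right, Irf1 lies at −1.22, and the medians of the 8 lists lie between −0.097 and 0.13.

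The genes whose log2 CPM over the 8 libraries followed *Tnfrsf1a* most closely were named by the smallest root mean square difference after centring, among 12124 genes. They were *Kirrel* (0.160), *Slc35d3* (0.222), *Col4a2* (0.266), *Casp8* (0.296) and *Ttc9* (0.321), where the spread of *Tnfrsf1a* itself was 0.818. *Kirrel*, an adhesion gene of the nephrin family, had 37.9, 34.1, 37.2 and 36.0 CPM in lines KO1, KO9, KO15 and KO25 and 15.7, 12.9, 13.9 and 14.0 CPM in lines WT7, WT12, WT17 and WT34. *Ttc9* had 8.97 to 10.3 CPM in KO against 3.19 to 5.28 CPM in WT lines. Among the 9 other genes, *Nfkb1* was the nearest at 0.661, with 368 genes closer, and *Fadd* the farthest at 1.35. This likeness follows the contrast that chose *Tnfrsf1a* and is given without a test.

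Near *Tnfrsf1a* on chromosome 6, 11 protein-coding genes that start within 200 kb were tested, and none was called (lowest adjusted p = 0.936 from edgeR). Of all genes, 0.0405% were called. Their log2 fold changes ran from −0.30 for *Vwf* to 0.51 for *Plekhg6*. *Ltbr*, a second receptor gene of the family, starts 35.5 kb before *Tnfrsf1a* and had a log2 fold change of 0.16, and *Scnn1a*, 28.7 kb before it, one of −0.011. *Plekhg6* ends 176 bases past the end of *Tnfrsf1a* on the opposite strand and had 1.15 to 1.64 CPM in KO against 0.779 to 1.13 CPM in WT lines (adjusted p = 0.936). The remaining 8 were *Gapdh* (0.13), *Ncapd2* (0.051), *Mrpl51* (0.041), *Vamp1* (−0.058), *Tapbpl* (0.15), *Tuba3a* (0.054), *Cd9* (0.16) and *Vwf*.

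The cells carried the markers of their label. The EpiLC and pluripotency genes *Pou5f1*, *Sox2*, *Dnmt3b*, *Otx2*, *Fgf5*, *Pou3f1* and *Pou2f2* all reached 1 TPM, with a summed level of 774 to 840 TPM in KO and 708 to 878 TPM in WT lines. Feeder fibroblast markers, a cell type that also expresses *Tnfrsf1a*, summed to 16.7 to 39.5 TPM in KO and 12.7 to 25.0 TPM in WT lines, with 4 of 14 at a mean of 1 TPM, *Postn* and *S100a4* at 0 and *Thy1* the highest. Immune cell markers summed to 8.07 to 16.8 and 6.90 to 15.8 TPM, with 2 of 10 at that level and *Adgre1* and *Tyrobp* at 0. Extraembryonic endoderm markers summed to 2.17 to 4.74 and 2.67 to 5.01 TPM (1 of 11, *Ttr* at 0) and trophoblast markers to 21.4 to 57.6 and 21.7 to 39.5 TPM (4 of 8). The summed levels of KO and WT lines overlapped for each list. Of the single markers tested, 2 had KO lines above WT lines without overlap in CPM. Over all genes tested, 4.19% did not overlap in either direction. The feeder marker *Col5a1*, a collagen gene, had 1.23 to 1.69 TPM in KO against 0.592 to 0.930 TPM in WT lines (log2 fold change 0.90, adjusted p = 0.163 from edgeR and 4.27e-05 from DESeq2). The endoderm marker *Sox7*, a transcription factor gene, had 0.0949 to 0.190 TPM against 0.0250 to 0.0545 TPM (2.03, adjusted p = 0.308 from edgeR and 0.0484 from DESeq2). In TPM but not in CPM, the trophoblast marker *Gata3* was also apart, with KO below WT. It had 0.226 to 0.952 TPM in KO against 0.988 to 6.22 TPM in WT lines (log2 fold change −0.26, adjusted p = 0.998 from edgeR). The share of all genes apart in TPM was not counted. The part of other cell types in the *Tnfrsf1a* difference was not tested.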

How the data were processed

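RNA was measured in EpiLCs of 4 *Tet1* KO and 4 WT lines. By the study's methods and the submitters' processing notes, reads were trimmed with Trim Galore 0.6.4, quantified with Salmon 0.14.1 and summarized per gene with tximport in R 4.0.2 (build mm10). The authors deposited estimated counts per gene and, as a second table, TPM of the same quantification.

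Counts were rounded to whole numbers (27.8% of values were not whole) and summed to between 13916576 and 20917851 per KO library and 14771499 and 23680839 per WT library; 205 rows had no symbol. edgeR 4.0.16 in R 4.3.3 ran its quasi-likelihood test of genotype after filterByExpr and TMM, with Benjamini-Hochberg adjustment over 17272 genes, and called genes under 0.05. The column suffix was tested with genotype in the model. Adjusted p-values are from edgeR unless another tool is named, and SEs were taken from the F statistic. CPM use TMM-scaled library sizes. Effective length is counts divided by TPM, scaled in each library on 789 genes with 1 annotated transcript over 600 nt and at least 100 counts, less a fragment term of 249 nt; it was compared by exact permutation (Python 3.11, scipy). Positions are from GENCODE M21 (53544 of 54281 IDs matched), not the release the authors used.

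Alternatives were DESeq2 1.42.0, limma 3.58.1 on log2(TPM + 1) and log2(TPM + 0.1), other scalings and filters, the suffix as a block, each suffix alone, a length offset, and each line left out. The fits were tested on simulated data. The data simulated for the genotype fit held no suffix difference, so that fit was not checked beside one. The genes, lists and tests were chosen with earlier results of these data known. Named were the 10 genes, *Tet1*, the 3 lowest p of each list, tested neighbours within 200 kb, and the 5 genes most like *Tnfrsf1a*; other list genes, chiefly those called by suffix or leading their list, were chosen after their values were seen. *Tet1* MUT lines and the time course are not analysed here.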

Additional observations from a re-analysis of the deposited data

Results flagged for a closer look

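Within groups of 4 lines, 60 sets of values of the 10 genes (CPM, TPM and effective length in KO and in WT) were checked for 1 line far from the other 3, and 4 stood out. Chance alone picks about 1 in 20 such sets. The effective length of *Tnfrsf1b* in WT12 was 2736 nt, where the other WT lines had 3761 to 3826 nt. That of *Tradd* in KO9 was 840 nt against 1304 to 1355 nt in the other KO lines. That of *Nfkb1* in WT12 was 2105 nt against 2747 to 2872 nt. The TPM of *Nfkb1* in WT7 was 3.40 against 3.95 to 4.05. No CPM value was among them.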

How the results depend on the processing

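None of the 9 genes other than *Tnfrsf1a* was called between KO and WT under any of the 20 alternatives tried (lowest adjusted p = 0.291), and no list gene was called except 1 by DESeq2. *Tnfrsf1a*, given without a test, had a log2 fold change of 1.38 to 1.77 under these. Over all genes, 7 were called in the main comparison, 106 by DESeq2, 28 with the suffix as a block, 19 within b1, 3 with the length offset, 2, 3 and 2 by limma on log2(TPM + 1), on log2(TPM + 0.1) and without a filter, and 6 to 10 with 1 line left out. By suffix, 4253 genes were called, but 2464 with the length offset, 1587, 1624 and 848 by limma in the same order, and 2655 to 4807 with 1 line left out (2655 without KO9, 2763 without WT7). Of the 10 genes, 4 were called by suffix, 2 with the length offset, 1 in each limma fit and 2 to 4 with 1 line left out. With 1 line left out, *Birc2* and *Rela* were lost without KO9, *Birc2* also without KO15, WT7 or WT34 and *Rela* without WT17. The limma fits with a filter did not test *Tnfrsf1b*, *Tradd* and *Fadd*, and called *Ripk1*. Without a filter, limma called *Fadd*, and *Ripk1* was lost (adjusted p = 0.107). *Tradd* was called by suffix without a filter or without WT34.

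Small differences changed sign. Between KO and WT, *Tnfrsf1b* was −0.094 within b2, −0.064 by limma without a filter and −0.12 with the length offset, *Tradd* was 0.041, 0.099 and 0.24 in these, and *Rela* was 0.073, 0.086 and 0.073 by limma and 0.016 with the offset. With 1 line left out, *Tnfrsf1b* ran from −0.027 to 0.066, *Tradd* from −0.36 to 0.24, *Rela* from −0.17 to 0.098, *Birc2* from −0.031 to 0.19 and *Fadd* from −0.68 to 0.074. Between b2 and b1, *Nfkb1* was −0.015 by library size alone and ran from −0.037 to 0.15, *Nfkbia* from −0.22 to 0.021 and *Tnfrsf1a* from −0.084 to 0.057. The log2 length difference of *Tnfrsf1a* was −0.11 within b2 and 0.055 to 0.30 with 1 line left out. The causes were not tested. No paired analysis was possible because the sources used here do not match the littermates to one another. *Fadd*, *Tradd* and *Casp8* rest on few counts.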
